A study of Mus musculus with 11 samples.

Results

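The effect of Tmem120a shRNA on mRNA levels in differentiated 3T3-L1 adipocytes was taken from a factorial set of 9 day 9 arrays, out of 11 arrays in the series. The rule averages a pair of differences: Tmem120a knock-down minus control, and double knock-down minus Tmem120b knock-down. This average is called the main effect below; 4 arrays carried Tmem120a shRNA and 5 did not. 3T3-L1 is a mouse preadipocyte line that forms fat cells in culture. The groups were control cells with a non-target shRNA (n = 3), Tmem120a knock-down (n = 2), Tmem120b knock-down (n = 2) and cells carrying both shRNAs (double knock-down, n = 2). All 9 were made with lentiviral shRNA vectors and were induced with insulin, dexamethasone, IBMX and rosiglitazone, then kept on insulin and rosiglitazone. The sample labels give day 9 for these arrays, while the series text names an earlier day for RNA isolation. Nothing in the labels says whether the arrays of a group came from separate transductions or cultures, so a group may be 1 transduced line, and p-values reflect array-to-array spread that may be technical. Values are log2 signals of bead-array probes, and 19057 genes were measured, each by its brightest probe.

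Tmem120a is a transmembrane protein of the nuclear envelope that is preferentially expressed in fat, and Tmem120b is its paralog. Nuclear envelope transmembrane proteins of this kind can hold particular genes at the nuclear periphery, where many are kept silent, and genes can leave or join the periphery as preadipocytes become adipocytes. The question the design put to these arrays was which mRNAs followed the loss of Tmem120a, whether or not Tmem120b was also lowered. Correlations between arrays were 0.9946 to 0.998 within a group and 0.9815 to 0.996 between groups. Before normalisation, the median log2 signal was 6.87 to 7.10 on the control arrays and 6.58 to 6.71 on the 6 knock-down arrays. Tmem120a knock-down against control therefore compared arrays of unequal brightness, while double against Tmem120b knock-down compared arrays of like brightness (6.59 and 6.65 against 6.68 and 6.71). The part of that gap in the results was not tested. Against the labelled cell type, 22 to 26 of 29 adipocyte markers were above background in each day 9 group, which required over 6.88 (log2) on every array of the group. Of 16 macrophage markers only 2 or 3 were, and of 16 endothelial markers only 2 to 4.

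Tmem120a itself was lowered in both backgrounds. Its probe read 12.52, 12.69 and 12.69 on the control arrays, 11.14 and 11.48 on the Tmem120a knock-down arrays, 12.58 and 12.66 on the Tmem120b knock-down arrays, and 11.51 and 11.52 on the double knock-down arrays. All 4 arrays with the shRNA lay below all 5 without it. The main effect was -1.22 ± 0.07 (log2, SE), which left 43.0% of the signal (adjusted p = 1.11e-05). The 2 backgrounds gave -1.33 and -1.11 (39.9% and 46.4% of the signal left), and the difference between them, 0.22, did not pass (adjusted p = 0.563). The knocked-down level stayed above the 10.84 and 11.02 of preadipocytes, in which Tmem120a is lower than in adipocytes.

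Tmem120b was not lowered by Tmem120a shRNA. Its brightest probe read 10.53, 10.35 and 10.46 in control and 10.76 and 10.48 in Tmem120a knock-down, and these overlapped. In the cells that carried Tmem120b shRNA it read 8.38 and 8.39 alone and 8.87 and 8.79 in the double knock-down, so the double knock-down arrays were the higher ones. The Tmem120b main effect of 0.31 ± 0.06 had an adjusted p of 0.0157 but stayed under the change required for a call. A second Tmem120b probe gave 0.42 (adjusted p = 0.00337).

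Most genes called for the main effect were lower. Calls required a log2 change of 0.5 or more together with an adjusted p of 0.05 or less (limma, Benjamini-Hochberg over all probes). For the main effect 171 genes were called (0.897% of those tested), of which 152 were lower (0.798%) and 19 higher (0.0997%). With the adjusted p alone and no required change, 759 were lower and 613 higher. Without an adjustment, 3862 genes had p at or below 0.05 (9.82% of all genes lower and 10.4% higher). A 2-fold change was reached by 9 called genes, 8 of them lower and 1, Orm2, higher. When the non-normalised values were only shifted to a common median, 387 genes were called and 4 of them were higher, so that 1.03% of the calls were rises.

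Much of the main effect came from one background. Without Tmem120b shRNA, Tmem120a shRNA changed 595 genes (3.12%), with 158 higher (0.829%) and 437 lower (2.29%). With Tmem120b shRNA it changed 35 (0.184%), with 7 higher (0.0367%) and 28 lower (0.147%). With the non-normalised values shifted to a common median the first comparison gave 2794 genes, 7 of them higher, and the second gave 1, which was lower. Of the 171 genes called for the main effect, 149 were called only in the first of these comparisons, 2 only in the second (Terf2ip, a telomere protein, and Timm8a1, a mitochondrial import factor), 18 in both and 2 in neither. Leaving out replicate 1 of the double knock-down raised the 35 to 280, and leaving out Tmem120b knock-down replicate 1 lowered it to 14. Without any other 1 of the control, Tmem120b knock-down or double knock-down arrays it was 18 to 23. The difference of the effect between the backgrounds was itself called for 441 genes (2.31%), 297 with a positive difference (1.56%) and 144 with a negative one (0.756%). At an unadjusted p of 0.05 it took in 3071 genes. The 441 became 822 without double knock-down replicate 1 and 291 without control replicate 3, and the 19 rises of the main effect became 45 without double knock-down replicate 1.

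The genes lowered by the main effect had a common pattern of levels. Their median change was -1.08 without Tmem120b shRNA and -0.22 with it, and in 144 of the 152 the first was the larger. In 126 of the 152 all 6 knock-down arrays lay below all 3 control arrays, a pattern seen in 6.61% of all genes. The 152 were picked by calls on these same arrays, so the medians and this count are partly built in. In 75 of the 152 the mean level in Tmem120b knock-down was already at or below that in Tmem120a knock-down. The 19 genes that rose were less unequal, with medians of 0.72 and 0.50. For 104 of the 171 called genes the difference between the backgrounds was called as well.

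**Figure D1:**
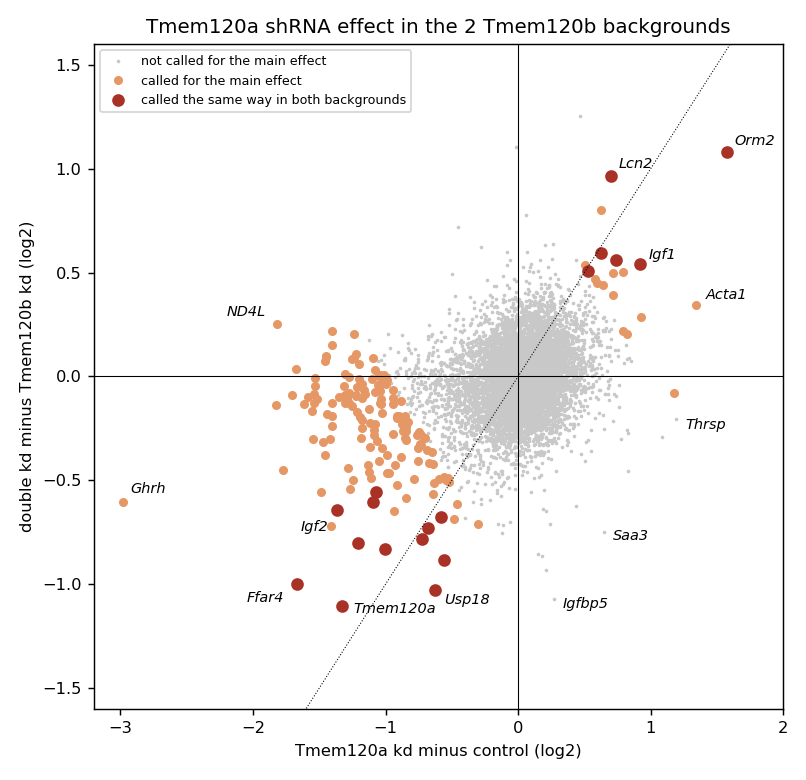
Tmem120a shRNA effect (log2 difference) without Tmem120b shRNA (x axis) against that with Tmem120b shRNA (y axis), 1 point per gene above background in at least 1 group (9707 genes), with the dotted line marking equal effects. The genes called for the main effect spread along the left of the x axis, and the 18 genes called the same way in both backgrounds lie nearer the dotted line.

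The 2 comparisons share no array, but their tests share 1 estimate of the spread from all 9 arrays, so calls in both are not independent. There were 19 such genes, and 18 of them changed in the same direction, which is 3.03% of the calls without and 51.4% of the calls with Tmem120b shRNA. Saa3 was the 1 that changed in opposite directions. The 6 that rose in both were Orm2, Lcn2, Igf1, Endod1, Mmp13 and Rgs17. The 12 that fell in both were Tmem120a, Ffar4, Igf2, F13a1, Mb, Serpinh1, Smim19, Usp18, H2ac12, Gm5886, Ppih and Smoc1. This set was put together after its values were seen. Under the median shift Serpinh1 alone kept both calls, Tmem120a losing its call with Tmem120b shRNA, while 15 of the 18 stayed called for the main effect. With the mean of all probes of a gene 11 kept both calls. Across the 9707 genes above background, the 2 sets of log2 changes had a correlation of 0.256 and the same sign in 56.8%, as a description over genes that share arrays within each comparison.

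Ffar4, the adipocyte receptor that senses long-chain fatty acids, fell most among the genes separated in both backgrounds. Its probe read 11.08, 11.15 and 10.91 in control against 9.27 and 9.49 in Tmem120a knock-down, and 9.75 and 9.80 in Tmem120b knock-down against 8.74 and 8.80 in the double knock-down. Neither pair of groups overlapped, and Tmem120b knock-down alone was already below control. The main effect was -1.33 ± 0.06 (adjusted p = 4.3e-06), with changes of -1.67 and -1.001 in the 2 backgrounds.

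Igf2, an insulin-like growth factor abundant in growing tissues, fell from a high level. It read 13.68, 13.55 and 13.55 in control, 12.09 and 12.36 in Tmem120a knock-down, 13.25 and 13.53 in Tmem120b knock-down, and 12.72 and 12.77 in the double knock-down. All 4 arrays with Tmem120a shRNA lay below all 5 without it. The Igf2 main effect was -1.01 ± 0.07 (adjusted p = 3.8e-05), from -1.37 and -0.64.

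F13a1, which encodes the A chain of the clot-stabilising transglutaminase factor XIII and is also made by adipocytes, changed in the same way. It read 8.86, 8.96 and 8.66 in control against 7.51 and 7.72, and 8.27 and 8.15 in Tmem120b knock-down against 7.38 and 7.44 in the double knock-down. The pairs did not overlap and the F13a1 main effect was -1.01 ± 0.07 (adjusted p = 3e-05). Serpinh1, the collagen chaperone of the endoplasmic reticulum, read 13.57, 13.69 and 13.69 in control and 12.54 and 12.56 in Tmem120a knock-down. With Tmem120b shRNA it started higher, at 13.94 and 14.05, and ended at 13.35 and 13.42. Its main effect was -0.85 ± 0.05 (adjusted p = 1.1e-05), and a second Serpinh1 probe gave -0.98.

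Mb, the oxygen-binding protein myoglobin of muscle, read 8.44, 8.49 and 8.57 in control, 7.55 and 7.44 in Tmem120a knock-down, 8.36 and 7.83 in Tmem120b knock-down, and 7.21 and 7.31 in the double knock-down. The 4 arrays with the shRNA were again the lowest, and the Mb main effect was -0.92 ± 0.09 (adjusted p = 0.00022). Ppih, a cyclophilin of the spliceosome, Smoc1, a secreted calcium-binding matrix protein, and H2ac12, a replication-dependent histone H2A gene, had main effects of -0.70, -0.63 and -0.75. Smim19 and Gm5886 had -0.82 and -0.72. In this smaller group the changes in the 2 backgrounds were alike for Ppih (-0.68 and -0.73), Smoc1 (-0.58 and -0.68) and H2ac12 (-0.73 and -0.78), while Smim19 fell more without Tmem120b shRNA (-1.08 against -0.56, adjusted p of the difference 0.021).

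**Figure D2:**
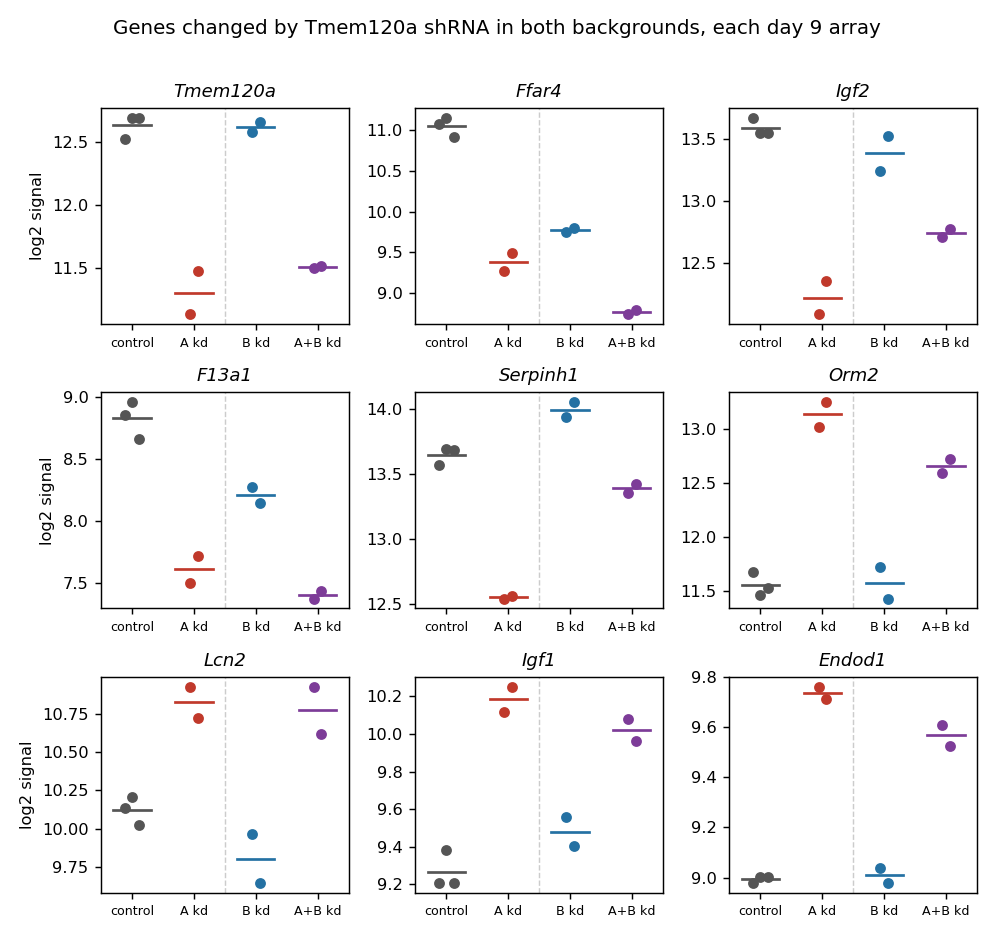
Log2 signal (y axis) on each day 9 array for 9 of the genes called in both backgrounds, with a point per array and a line at the group mean: control, Tmem120a knock-down (A kd), Tmem120b knock-down (B kd) and double knock-down (A+B kd). Within each side of the dashed line the groups do not overlap for any of the 9 genes.

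Orm2, an orosomucoid or alpha-1-acid glycoprotein of the acute phase, rose most. It read 11.68, 11.47 and 11.53 in control and 13.02 and 13.25 in Tmem120a knock-down. In Tmem120b knock-down it read 11.72 and 11.43, and in the double knock-down 12.59 and 12.72. Tmem120b knock-down overlapped control while all 4 arrays with Tmem120a shRNA were higher, and the Orm2 main effect was 1.33 ± 0.07 (adjusted p = 1.1e-05). The change with Tmem120b shRNA was 1.08 against 1.57 without it, and the difference did not pass (adjusted p = 0.14).

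Lcn2, the siderophore-binding lipocalin that adipocytes secrete in inflammation, read 10.13, 10.20 and 10.02 in control, 10.92 and 10.72 in Tmem120a knock-down, 9.97 and 9.65 in Tmem120b knock-down, and 10.93 and 10.62 in the double knock-down. All arrays with Tmem120a shRNA were above all without it, and its main effect was 0.83 ± 0.08 (adjusted p = 0.00026). Igf1, the growth factor that acts through the same receptor as Igf2, moved the opposite way to Igf2. Igf1 read 9.21, 9.38 and 9.21 in control against 10.11 and 10.25, and 9.56 and 9.40 against 10.08 and 9.96 with Tmem120b shRNA. Its main effect was 0.73 ± 0.06 (adjusted p = 8.5e-05), and a second Igf1 probe gave 0.62.

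Endod1, an endonuclease-domain protein, read 8.98, 9.00 and 9.00 in control, 9.76 and 9.71 in Tmem120a knock-down, 9.04 and 8.98 in Tmem120b knock-down, and 9.61 and 9.53 in the double knock-down. Tmem120b knock-down stood at the control level and the Endod1 main effect was 0.65 ± 0.04 (adjusted p = 1.8e-05). Mmp13, a collagenase, rose by 0.63 and 0.60 in the 2 backgrounds (main effect 0.61, adjusted p = 0.00039), and its second probe gave 0.23. Rgs17, a regulator of G-protein signalling, rose by 0.52 and 0.51, from a level that Tmem120b knock-down had lowered from between 8.53 and 8.65 to 7.41 and 7.45. The rise of Rgs17 was therefore seen from unequal starting levels, and its second probe gave a main effect of 0.07.

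The other rises separated in both backgrounds were called only without Tmem120b shRNA. Acta1, the skeletal muscle actin, read 7.43, 7.47 and 7.29 in control and 8.61 and 8.87 in Tmem120a knock-down, but 7.44 and 7.48 in Tmem120b knock-down and 7.68 and 7.92 in the double knock-down. Its main effect of 0.84 was made of changes of 1.34 and 0.35 that differed from each other (adjusted p = 0.004). Hp, the haemoglobin-binding haptoglobin, likewise gave 0.93 and 0.29 (difference adjusted p = 0.0035). Mettl7b, a methyltransferase-like protein of lipid droplets, had a main effect of 0.71 and a change of 0.80 with Tmem120b shRNA, where the double knock-down arrays stood apart from each other at 9.25 and 9.87.

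Mcam, a cell adhesion molecule, Orm1, the second orosomucoid, Hacd2, a dehydratase of very-long-chain fatty acid synthesis, and Gpd1, the glycerol-3-phosphate dehydrogenase that feeds triglyceride synthesis, rose by 0.65, 0.60, 0.56 and 0.54. Of these 12 largest rises, 8 were no longer called when the non-normalised values were only shifted to a common median. Those 8 were Mettl7b, Endod1, Mcam, Mmp13, Hp, Orm1, Hacd2 and Gpd1, with changes of 0.36 to 0.53 on that scale. Orm2, Acta1, Lcn2 and Igf1 were called on both scales.

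The other large falls were uneven. Col3a1, the chain of type III collagen, read 12.58, 12.48 and 12.56 in control, 11.02 and 10.52 in Tmem120a knock-down, 11.03 and 11.36 in Tmem120b knock-down, and 10.86 and 10.62 in the double knock-down. Every knock-down group was low, and the Col3a1 change was -1.77 without and -0.45 with Tmem120b shRNA. A second Col3a1 probe gave a main effect of only -0.24 where the first gave -1.11. Uba6, a ubiquitin-activating enzyme, gave -1.41 without and -0.72 with Tmem120b shRNA, with double knock-down arrays at 10.59 and 9.81. The other Uba6 probe was above background in no group, and the mean of both probes gave a Uba6 main effect of -0.51. Wdr89, a WD-repeat protein, had a main effect of -1.02 on one probe and -0.08 on its other.

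Depp1, a FoxO target linked to autophagy, read 8.67, 8.91 and 8.59 in control and 6.82 and 6.97 in Tmem120a knock-down, where 1 of the 2 arrays was above background. In Tmem120b knock-down it was 7.03 on both arrays and in the double knock-down 6.89 on both. The Depp1 main effect was -0.98, from -1.83 and -0.14. Among called genes measured by a second probe above background, 13 of 48 (27.1%) were called the same way by that probe, and 40 of 48 had the same sign.

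Genes of the hypoxia response formed the list with the largest share of falls. These are targets of the hypoxia-inducible transcription factors, which bind a short core motif near target genes and switch on oxygen sensing, glycolysis and blood vessel growth when oxygen or the prolyl hydroxylases are limiting. Of 19 measured genes, 7 were called lower (0.798% of all genes) and 0 higher in the main effect. The median change was -0.42 against 0.0065 over all genes tested. At an unadjusted p of 0.05, 16 were lower and 0 higher (limma, 9.82% and 10.4% of all genes). Without Tmem120b shRNA 13 were called lower (2.29% of all genes), with a median of -0.76 (all genes 0.016). With Tmem120b shRNA 0 were called (median -0.10, all genes -0.0029), with 3 lower and 0 higher at an unadjusted p of 0.05 (6.27% of all genes lower and 5.08% higher at that p). The difference was called for 10 of the 19, all of them positive (1.56% of all genes).

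The promoters of the 6 called members with a single start in the table are shown because these genes were lower together and the factor has a known core motif. The seventh, Mxi1, had 3 starts. Each window holds the 250 bases before the transcription start in RefSeq (GRCm38.p6), 5′ to 3′ on the gene's strand, with the letters ACGTG or GCGTG, or their reverse complements CACGT and CACGC, in capitals. CACGTG holds ACGTG and CACGT at once.
Egln3, chr12:54203875-54204124, minus strand: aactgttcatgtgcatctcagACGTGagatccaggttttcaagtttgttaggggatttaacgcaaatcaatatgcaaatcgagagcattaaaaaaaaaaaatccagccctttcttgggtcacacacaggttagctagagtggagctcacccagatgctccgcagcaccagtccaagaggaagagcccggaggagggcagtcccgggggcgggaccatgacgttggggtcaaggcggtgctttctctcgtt
Ankrd37, chr8:45999851-46000100, minus strand: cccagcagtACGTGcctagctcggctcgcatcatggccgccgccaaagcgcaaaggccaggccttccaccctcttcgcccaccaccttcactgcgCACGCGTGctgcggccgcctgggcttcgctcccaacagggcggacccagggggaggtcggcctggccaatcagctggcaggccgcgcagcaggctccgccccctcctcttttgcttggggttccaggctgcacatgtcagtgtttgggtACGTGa
P4ha2, chr11:54100674-54100923, plus strand: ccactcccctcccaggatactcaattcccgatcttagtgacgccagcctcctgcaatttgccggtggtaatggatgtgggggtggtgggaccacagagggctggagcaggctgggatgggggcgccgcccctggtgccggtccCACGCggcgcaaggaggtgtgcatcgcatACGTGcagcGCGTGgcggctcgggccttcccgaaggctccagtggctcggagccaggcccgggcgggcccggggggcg
Higd1a, chr9:121857797-121858046, minus strand: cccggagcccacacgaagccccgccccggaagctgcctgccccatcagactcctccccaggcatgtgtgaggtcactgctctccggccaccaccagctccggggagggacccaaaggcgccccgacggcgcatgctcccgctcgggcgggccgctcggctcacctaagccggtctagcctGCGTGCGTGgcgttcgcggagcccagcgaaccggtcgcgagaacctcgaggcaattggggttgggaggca
Car9, chr4:43506776-43507025, plus strand: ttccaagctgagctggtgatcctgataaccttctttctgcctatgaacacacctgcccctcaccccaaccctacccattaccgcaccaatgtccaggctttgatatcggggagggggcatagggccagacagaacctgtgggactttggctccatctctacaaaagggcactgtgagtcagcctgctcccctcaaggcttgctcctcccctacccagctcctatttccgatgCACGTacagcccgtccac
Ddit4, chr10:59951771-59952020, minus strand: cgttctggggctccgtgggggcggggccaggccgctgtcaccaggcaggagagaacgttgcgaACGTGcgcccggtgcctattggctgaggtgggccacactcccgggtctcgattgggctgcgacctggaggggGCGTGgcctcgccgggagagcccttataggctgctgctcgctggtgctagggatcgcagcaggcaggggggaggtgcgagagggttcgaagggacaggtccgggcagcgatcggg
A match was found before at least 1 start of all 7 called members, and of all 16 of the list's genes with a window in the table. It was also found for 41.5% of 27025 genes with a window, and for 62.1% of the 7900 that were measured above background here. A match describes the letters only and does not show that a factor bound there.

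Egln3, the prolyl hydroxylase that marks hypoxia-inducible factors for decay and is itself their target, fell most in the list. It read 11.24, 11.50 and 11.08 in control, 9.75 and 9.86 in Tmem120a knock-down, 9.11 and 9.03 in Tmem120b knock-down, and 8.50 and 9.00 in the double knock-down. All 6 knock-down arrays were low, those with Tmem120b shRNA lowest. The Egln3 main effect was -0.89 ± 0.10 (adjusted p = 0.00064), made of -1.47 and -0.32, and that difference passed (adjusted p = 0.016). Ankrd37, an ankyrin-repeat protein, read 9.44, 9.62 and 9.23 in control, 8.03 and 8.27 in Tmem120a knock-down, 8.14 and 8.20 in Tmem120b knock-down, and 7.81 and 7.64 in the double knock-down. Here the double knock-down was the lowest group, and the main effect was -0.86 ± 0.08.

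P4ha2, a subunit of the prolyl hydroxylase that modifies collagen, was a member in which Tmem120b knock-down stayed near control. P4ha2 read 11.09, 11.05 and 10.99 in control, 9.85 and 10.02 in Tmem120a knock-down, 10.92 and 11.13 in Tmem120b knock-down, and 10.63 and 10.45 in the double knock-down. All 4 arrays with Tmem120a shRNA lay below all 5 without it, with a main effect of -0.80 ± 0.06 (adjusted p = 6.8e-05) and -0.74 on a second probe. The stress-induced Ddit4, an inhibitor of mTORC1, gave -0.87 without and -0.26 with Tmem120b shRNA.

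Mxi1, a repressor of Myc targets, Car9, a membrane carbonic anhydrase, and Higd1a, a hypoxia-induced mitochondrial protein, were near background on the knock-down arrays. The Higd1a main effect was -0.50, and its call was lost without control replicate 2, Tmem120a knock-down replicate 1 or double knock-down replicate 1 (-0.48 to -0.46). Higd1a read 7.85, 7.95 and 7.77 in control and between 6.76 and 6.92 on all 6 knock-down arrays. Car9 was above background on neither Tmem120a knock-down array and fell at least 1.97-fold without Tmem120b shRNA, counting the dim arrays at the background limit. Higd1a was above it on 1 of those 2 arrays and changed by -1.02. With Tmem120b shRNA, Mxi1 and Car9 were above background on 0 of 4 arrays and Higd1a on 1, so no fold is given there and their main effects rest on the first pair. Across the list, 14 of 19 genes had all 6 knock-down arrays below all 3 controls (6.61% of all genes). Double knock-down arrays lay below both Tmem120b knock-down arrays in 7 of the 19 (18.8% of all genes). The transcription factor Hif1a did not pass, with a main effect of 0.01 ± 0.12.

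**Figure D3:**
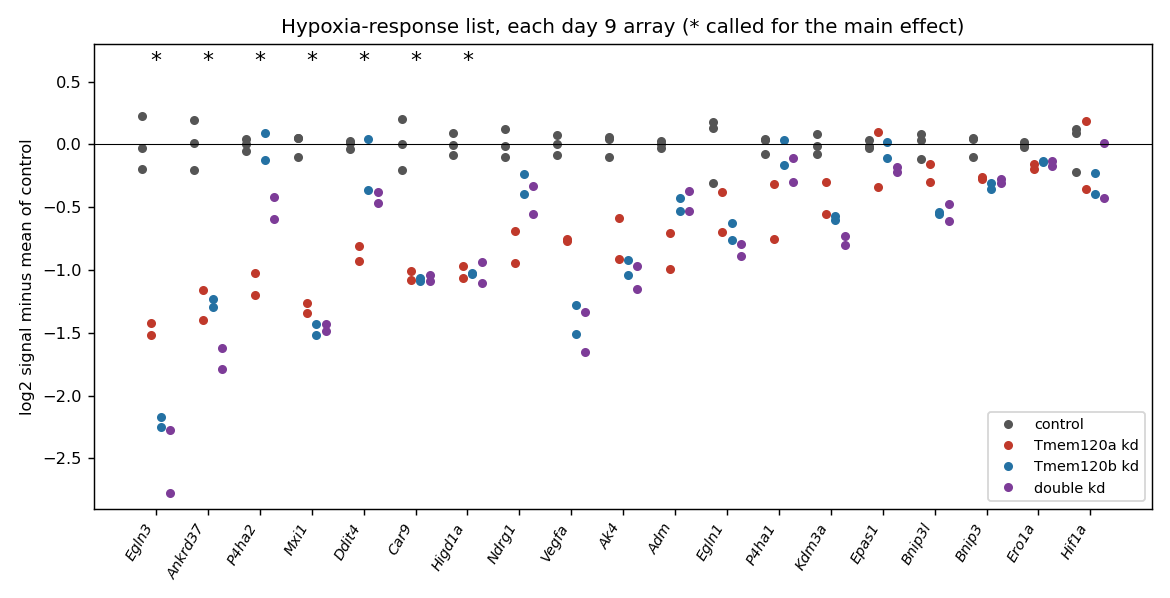
Log2 signal minus the control mean (y axis) for the 19 hypoxia-response genes, ordered by main effect, with a point per day 9 array coloured by group and an asterisk over the 7 genes called for the main effect. In 14 of the 19 genes all 6 knock-down arrays lie below the 3 controls (6.61% of all genes).

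Glycolysis, which hypoxia-inducible factors also drive, was measured by 17 genes. Of these, 2 were called lower (0.798% of all genes) and 0 higher, with a median of -0.20. At an unadjusted p of 0.05, 12 were lower and 0 higher (limma, 9.82% and 10.4% of all genes). None had a positive change in both backgrounds. Pgk1, phosphoglycerate kinase, read 13.38, 13.29 and 13.17 in control, 12.38 and 12.23 in Tmem120a knock-down, 12.29 and 12.12 in Tmem120b knock-down, and 11.77 and 11.70 in the double knock-down. The Pgk1 changes were -0.97 and -0.47, the second without passing (adjusted p = 0.073), and its second probe gave a main effect of -0.07. The Gapdh main effect was -0.51, just past the threshold, and was not called without control replicate 1, Tmem120a knock-down replicate 1, Tmem120b knock-down replicate 2 or double knock-down replicate 2 (-0.49 to -0.42).

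Called falls among respiratory chain and TCA cycle genes were in a few members, at shares above that of all genes (0.798% called lower). Of 38 oxidative phosphorylation genes 5 were lower (13.2%) and 0 higher, with a median of -0.05, and 26 were below 0. At an unadjusted p of 0.05, 9 were lower and 3 higher (limma, 9.82% and 10.4% of all genes). With Tmem120b shRNA 7 were lower and 1 higher at that p (6.27% and 5.08% of all genes). In 11 of the 38 all 6 knock-down arrays lay below the 3 controls (6.61% of all genes). Ndufb2, Ndufb5 and Ndufb9, accessory subunits of complex I, had main effects of -0.92, -0.92 and -0.81. Cox7b of cytochrome oxidase and Atp5a1, the alpha subunit of ATP synthase, had -0.87 and -0.82. Ndufb5 read 10.69, 10.37 and 10.42 in control, 8.96 and 9.10 in Tmem120a knock-down, 8.94 and 8.67 in Tmem120b knock-down, and 8.40 and 8.45 in the double knock-down, so that each pair was separate while both Tmem120b groups were as low as Tmem120a knock-down. The second Atp5a1 probe gave -0.04. The other Ndufb2 probe was above background in no group, and the mean of both gave a Ndufb2 main effect of -0.44, which was not called.

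Of 21 genes of the TCA cycle and pyruvate entry, 3 were lower (14.3% against 0.798% of all genes) and 0 higher, with a median of 0.0038. They were Sdhd (-0.81), a membrane anchor of succinate dehydrogenase, Dld (-0.84), the shared dehydrogenase subunit of the oxoacid complexes, and Idh2 (-0.64), the mitochondrial NADP-dependent isocitrate dehydrogenase. For all 3 the difference between the backgrounds was called, with changes of -1.44, -1.54 and -1.12 without and of -0.18, -0.13 and -0.16 with Tmem120b shRNA. Pcx, pyruvate carboxylase, gave 0.40 without reaching the fold required. In a fit with no term for the difference between backgrounds, Sdhd, Dld and Idh2 were no longer called, nor were Ndufb9, Atp5a1, Mccc1, Hspa5, Mxi1, Higd1a and Depp1. In branched-chain amino acid breakdown 2 of 18 fell (11.1% against 0.798% of all genes), Mccc1 (-0.72) and Aldh6a1 (-0.57), and 0 rose.

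Of 18 genes of brown and beige fat, only Cox7a1, a cytochrome oxidase subunit enriched in brown fat and muscle, was called. It read 10.80, 10.67 and 10.89 in control, 9.63 and 9.42 in Tmem120a knock-down, 9.07 and 8.59 in Tmem120b knock-down, and 8.44 and 8.14 in the double knock-down. Each shRNA was accompanied by a lower Cox7a1 level and the double knock-down was lowest, with a main effect of -0.90 ± 0.10. The brown-fat coactivator Ppargc1a had -0.38 and was not called. Of the 18 genes, 9 were above background in any group. At the unadjusted p used for the other lists, 7 were lower and 0 higher in the main effect (limma, 9.82% and 10.4% of all genes). The counts were the same with Tmem120b shRNA (6.27% and 5.08% of all genes), and without it 2 were lower and 1 higher. Double knock-down arrays lay below both Tmem120b knock-down arrays in 10 of the 18 (18.8% of all genes).

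Calls for the main effect among endoplasmic reticulum chaperones and stress regulators were all lower. The shares called were 5.26% and 7.69%, against 0.897% of all genes. At an unadjusted p of 0.05, 6 of 19 chaperones and 11 of 26 regulators were lower (limma, 9.82% of all genes). At that p 0 of either were higher (10.4% of all genes). Of 19 chaperones only Hspa5 was called, the Hsp70 of the reticulum, with 8.54, 8.72 and 8.70 in control and 6.92 and 6.97 in Tmem120a knock-down. Its levels were 6.97 and 7.03 in Tmem120b knock-down and 6.77 and 7.06 in the double knock-down, so Hspa5 changed by -1.71 without and by -0.09 with Tmem120b shRNA. Of 26 unfolded protein and amino acid stress regulators, 2 were lower and 0 higher in the main effect: Chac1 (-0.52), which degrades glutathione, and Slc3a2 (-0.54), the heavy chain of amino acid exchangers. Without Tmem120b shRNA 8 of the 26 were lower (2.29% of all genes). With it 0 were called, and 5 were lower and 1 higher at an unadjusted p of 0.05 (limma).

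Adipocyte identity genes had 1 call in each direction. Of 29 adipocyte markers 1 was lower (Ffar4) and 1 higher (Gpd1), or 6.9% against 0.897% of all genes. At an unadjusted p of 0.05, 10 were higher and 5 lower (limma, 10.4% and 9.82% of all genes). The median was 0.08 and became -0.003 under the median shift. The mean log2 signal of the list was 10.12 to 10.16 on control arrays, 10.24 on both Tmem120a knock-down arrays, 9.86 to 9.90 on Tmem120b knock-down and 9.89 to 9.94 on double knock-down arrays. The list was thus slightly higher with Tmem120a shRNA in the first pair, and the ranges overlapped in the second. Cidec, which fuses lipid droplets, gave 0.40 ± 0.05 and the glycerol channel Aqp7 gave 0.39 ± 0.05, both with an adjusted p under the threshold and both under the required change.

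Lipid enzymes had 1 call for the main effect. Of 26 genes of fatty acid and triglyceride synthesis 1 was lower and 0 higher: Agpat3 (-0.61), an acyltransferase, with levels of 8.81 to 9.00 in control, 7.95 on both Tmem120a knock-down arrays, 7.66 and 7.62 in Tmem120b knock-down, and 7.29 and 7.44 in the double knock-down. The triglyceride enzymes Gpat3 and Dgat1 gave 0.36 and 0.33. Among 19 lipolysis and droplet genes, 22 of beta oxidation and 16 of cholesterol synthesis 0 were called by limma. At an unadjusted p of 0.05 these held 5 higher and 4 lower, 9 higher and 4 lower, and 7 higher and 2 lower. The 26 synthesis genes held 11 higher and 6 lower. Over all genes the shares were 10.4% higher and 9.82% lower. The medians of the lists without a call were 0.02, 0.03 and 0.10, and -0.04, -0.02 and -0.08 under the median shift.

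Acute-phase and secreted immune proteins were the list with the most rises. Of 29 measured, 4 were called higher (Orm1, Orm2, Hp and Lcn2) and 0 lower in the main effect, with a median of 0.04. Over all genes 0.0997% were called higher and 0.798% lower. Under the median shift 2 stayed called, Orm2 and Lcn2. Without Tmem120b shRNA 10 were higher and 0 lower (0.829% and 2.29% of all genes). With it 2 were higher, Orm2 and Lcn2, and 3 lower: Saa3, an acute-phase apolipoprotein, C4b, a complement component, and Ccl5, a chemokine. Ccl5 read 7.33, 7.17 and 7.27 in control, 7.52 and 7.41 in Tmem120a knock-down, 9.02 and 8.58 in Tmem120b knock-down and 7.97 and 7.77 in the double knock-down. Ccl5 was thus high in Tmem120b knock-down and lower again when Tmem120a shRNA was added, and the difference between the backgrounds was -1.14 (adjusted p = 0.0053). C4b and its neighbour copy C4a can share probe signal, so their values cannot be fully separated.

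Interferon-induced genes stood higher in the Tmem120b background, and with Tmem120a shRNA more of them were lower than higher. Of 42 measured, 4 were called lower and 0 higher in the main effect (median -0.12). In the main effect 33 were below 0, and 25 were below 0 in both backgrounds (24.2% of all genes). At the unadjusted p used for the other lists, 19 were lower and 2 higher (limma, 9.82% and 10.4% of all genes). At that p 20 were lower and 1 higher with Tmem120b shRNA (6.27% and 5.08% of all genes). Without it 12 were lower and 6 higher (10.3% and 12.9% of all genes). With Tmem120b shRNA the median was -0.22, 24 of 42 had double knock-down arrays below both Tmem120b knock-down arrays (18.8% of all genes), and 1 was called. That gene, Usp18, which removes ISG15 from proteins and restrains interferon signalling, read 9.68, 9.50 and 9.41 in control, 8.74 and 9.06 in Tmem120a knock-down, 11.70 and 11.54 in Tmem120b knock-down, and 10.82 and 10.37 in the double knock-down. Neither pair overlapped, and the main effect was -0.83 ± 0.10 with -0.71 on a second probe.

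Oasl2, a 2-5A synthetase-like protein, and Gbp3, a guanylate-binding GTPase, gave main effects of -0.54 and -0.51. The Oasl2 main effect was not called without replicate 2 of Tmem120a knock-down, Tmem120b knock-down or the double knock-down (-0.49 to -0.48) or by the mean of its probes (-0.24). H2-K1, a class I antigen-presenting chain, gave -0.87, from -1.62 and -0.13, and its second probe -0.06. The mean log2 signal of the 42 genes was 8.63 to 8.74 on control arrays, 8.56 to 8.59 with Tmem120a knock-down, 9.61 to 9.62 with Tmem120b knock-down and 9.28 to 9.49 with both. In both pairs the arrays carrying Tmem120a shRNA were the lower ones.

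Cell division genes had no calls for the main effect. Of 43 genes 0 were called by limma for the main effect, with 3 higher and 11 lower at an unadjusted p of 0.05. With Tmem120b shRNA 0 were called either. There 19 were lower and 0 higher at that p (6.27% and 5.08% of all genes), and 24 had both double knock-down arrays below both Tmem120b knock-down arrays (18.8% of all genes). Their mean log2 signal was 8.36 to 8.37 in Tmem120b knock-down and 8.15 to 8.22 in the double knock-down, against 7.61 to 7.65 on control and Tmem120a knock-down arrays. Uhrf1, which maintains DNA methylation at replication, read 9.23 and 9.30 in Tmem120b knock-down and 8.76 and 8.87 in the double knock-down.

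Extracellular matrix genes had 2 of 43 called lower (0.798% of all genes), Col3a1 and Lamb1 (-0.70), a laminin chain, and 0 higher. At an unadjusted p of 0.05 the main effect had 17 lower and 5 higher (limma, 9.82% and 10.4% of all genes). Without Tmem120b shRNA 8 were called lower (2.29% of all genes), and at that p 17 were lower and 3 higher (10.3% and 12.9% of all genes). With it 0 were called, and 7 were lower and 7 higher at that p (6.27% and 5.08% of all genes). Of 27 markers of preadipocytes and fibroblasts 0 were called (4 higher and 7 lower at that p). Of 35 skeletal muscle genes 1 was higher, Acta1, and 1 lower, Mb, and 12 of the 35 were above background in any group. The median of the muscle list was -0.0034, so that the rise of Acta1 was not shared by the list.

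Among 24 insulin and IGF genes 1 rose (Igf1) and 1 fell (Igf2). Hmox1, which degrades haem, was the 1 called of 29 antioxidant genes, at 10.37, 10.25 and 10.36 in control, 9.31 and 9.16 in Tmem120a knock-down, 9.14 and 8.90 in Tmem120b knock-down, and 8.95 and 8.56 in the double knock-down. The control arrays stood apart and the second pair overlapped, and the Hmox1 main effect was -0.67. Of the 29, 13 were higher and 5 lower at an unadjusted p of 0.05 (limma, 10.4% and 9.82% of all genes). Their median was 0.09, and -0.06 under the median shift. Without Tmem120b shRNA 4 of them were called higher and 3 lower (0.829% and 2.29% of all genes). In the nuclear envelope list of 25 genes only Tmem120a itself was called. Tmem43, an inner nuclear membrane protein, gave 0.43 and was not. Of 15 measured genes that the study text names elsewhere, 10 were above background in any group. For the main effect 0 were called by limma (3 higher and 3 lower at an unadjusted p of 0.05). Without Tmem120b shRNA 2 of the 15 were called lower and 0 higher (2.29% and 0.829% of all genes). With it 0 were called, and the difference between the backgrounds was called for 2, both positive (1.56% of all genes).

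**Figure D4:**
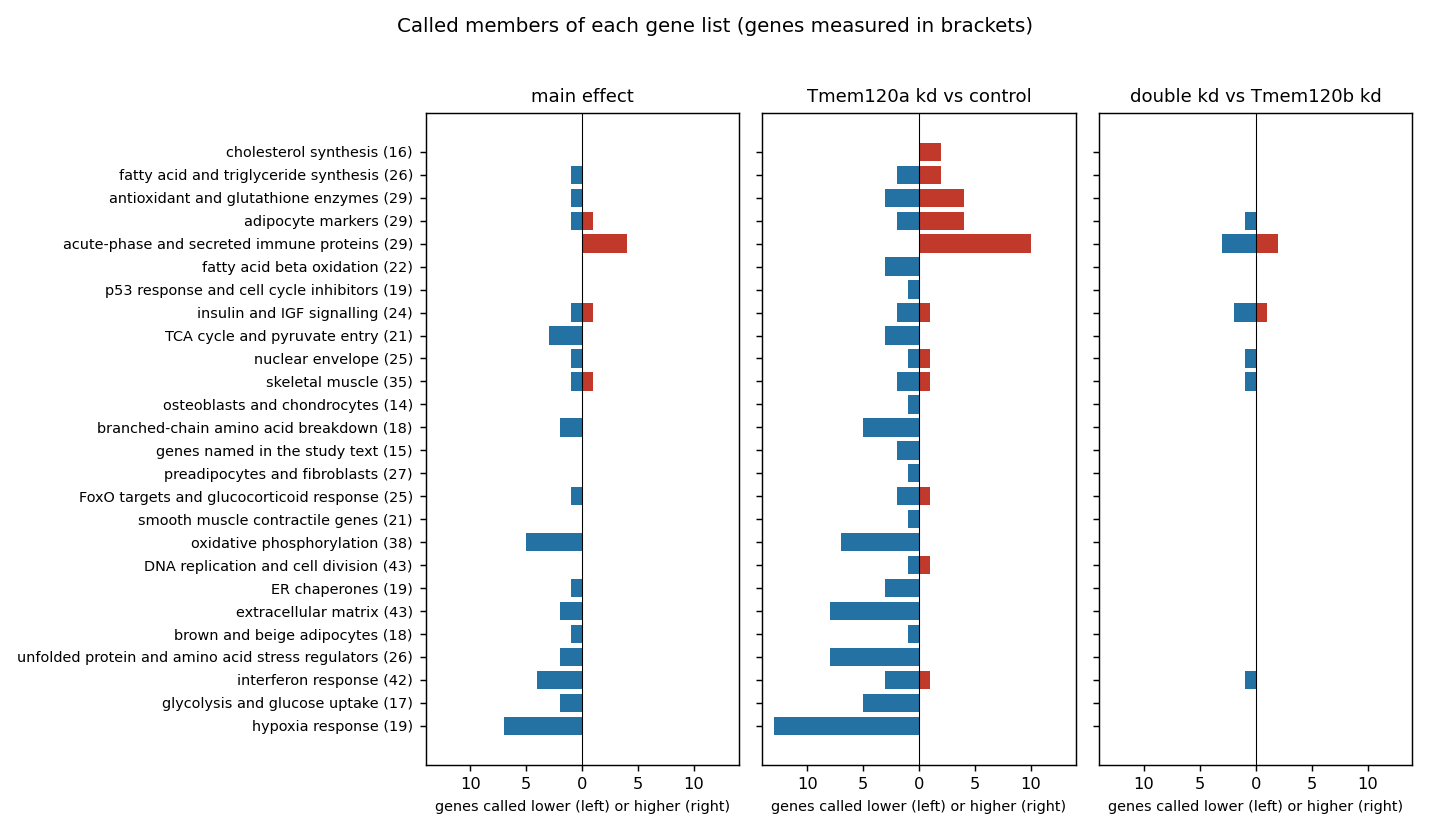
Number of genes called lower (bars to the left) or higher (bars to the right) in each list with a call, for the main effect, for Tmem120a knock-down against control and for double against Tmem120b knock-down, with the genes measured in brackets. The hypoxia-response list has 7 lower in the main effect, 13 in the middle panel and 0 in the right panel.

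Where the backgrounds differed, the positive differences were mostly falls in the first background that were not repeated. Of the 297 positive differences 252 were genes called lower without Tmem120b shRNA. The difference subtracts the first change from the second, so this count, and those of the negative differences below, are partly built in. Ghrh, the growth hormone-releasing hormone, had the largest, with 11.39, 11.38 and 11.28 in control, 8.34 and 8.40 in Tmem120a knock-down, 8.63 and 7.78 in Tmem120b knock-down, and 7.81 and 7.39 in the double knock-down. The second pair overlapped, so Ghrh was not among the genes separated in both, although its main effect was -1.79 ± 0.14 (adjusted p = 8.8e-05). Its changes were -2.98 and -0.61, a difference of 2.37 (adjusted p = 0.002).

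ND4L, the probe of a mitochondrially encoded complex I subunit, read 10.17, 9.82 and 9.84 in control, 8.20 and 8.05 in Tmem120a knock-down, 7.70 and 7.50 in Tmem120b knock-down, and 7.73 and 7.98 in the double knock-down. It fell by 1.82 in the first background and gave 0.25 in the second. Atp5a1, Depp1 and Emc7, a subunit of the membrane protein insertion complex, had differences of 1.71, 1.69 and 1.62. In all 5 of these genes each knock-down group was well below control.

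Negative differences took a different form. Of the 144, 60 were genes called higher without Tmem120b shRNA and 9 were genes called lower with it. Saa3 rose from 7.49, 7.32 and 7.62 in control to 8.11 and 8.15 in Tmem120a knock-down. It fell from 8.90 and 8.60 in Tmem120b knock-down to 8.11 and 7.89 in the double knock-down. Both changes of Saa3 were called, 0.65 and -0.75, so the main effect was -0.05 and hid them.

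Igfbp5, a binding protein of insulin-like growth factors, read 7.26, 7.27 and 7.12 in control and 7.49 and 7.48 in Tmem120a knock-down, against 9.35 and 9.66 in Tmem120b knock-down and 8.45 and 8.42 in the double knock-down. It stood highest with Tmem120b shRNA alone and was lower by 1.07 (log2) when Tmem120a shRNA was added. Hpx, the haem carrier hemopexin, gave changes of 0.83 and -0.45. Thrsp, a regulator of lipid synthesis, was at 11.22 to 11.32 in control and 12.05 to 12.62 on every knock-down array, and gave 1.19 and -0.20. Fabp4, the fatty acid-binding protein of adipocytes, was measured by a single dim probe (7.30 to 8.48), and gave 1.08 and -0.29.

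**Figure D5:**
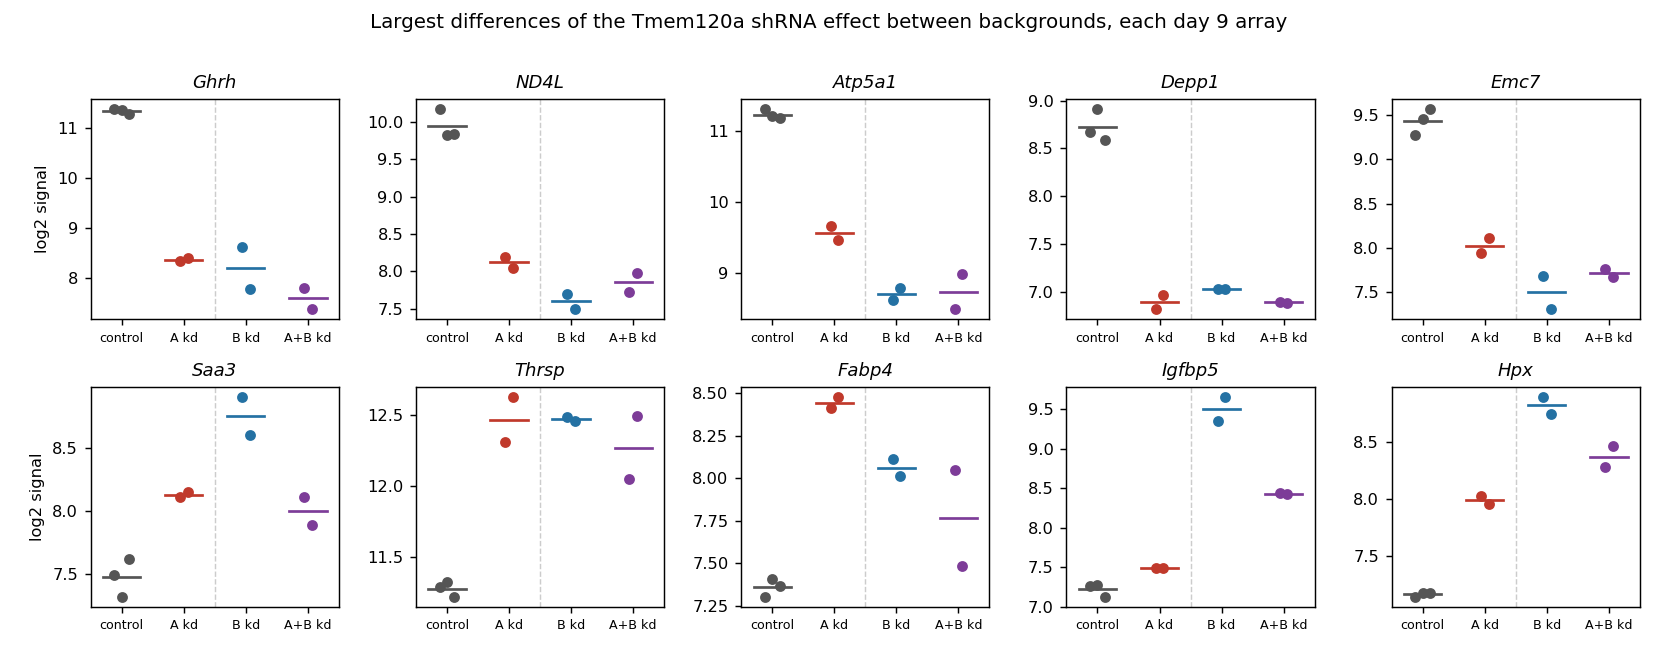
Log2 signal (y axis) on each day 9 array for the 5 largest positive (top row) and the 5 largest negative (bottom row) differences of the Tmem120a shRNA effect between backgrounds, with a point per array, a line at the group mean and the group names A kd, B kd and A+B kd for Tmem120a, Tmem120b and double knock-down. In the top row every knock-down group lies below control, and for Saa3 the shRNA goes with a higher level left of the dashed line and a lower one right of it.

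The effect with Tmem120b shRNA can be set beside differentiation without shared arrays, since differentiation compares control with preadipocytes. The tests behind the calls still share control and knock-down arrays in their estimates of the spread. Of 2273 genes higher in control adipocytes than in preadipocytes, 5 were higher and 15 lower when Tmem120a shRNA was added to Tmem120b knock-down, with a median of 0.018. Of 2086 genes lower in adipocytes 0 were higher and 6 lower, with a median of -0.041. Both medians were small beside the spread of these changes over genes (SD 0.165). Among the 152 genes lowered by the main effect, 74 were higher and 32 lower in adipocytes, counts that share the control arrays with the main effect.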

How the data were processed

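Total RNA was labelled and hybridised to Illumina MouseWG-6 v2 arrays. The deposited log2 values had been quantile normalised over all 11 arrays by the authors with limma (version not given in the sources used here), and a non-normalised log2 table was deposited too. No detection p-values were used. Groups were taken from the sample labels. A 4-group linear model was fitted to the 9 day 9 arrays with limma 3.58.1 in R 4.3.3 (5 residual and 5.88 prior degrees of freedom), and p-values were adjusted by Benjamini-Hochberg over all 45281 probes. One symbol was paired with 34885 probes, 18 had several and 10378 none. Each of 19057 genes was represented by its brightest probe. Above background meant over 6.88 on every array of a group, which is 3 spreads above the signal mode of 6.66. The number of arrays limits the precision. The model was tested on simulated data. Named genes were Tmem120a, Tmem120b, the 12 largest rises and 12 largest falls separated in both backgrounds, the 5 largest differences in each direction and 4 genes by moderated t per list. The members and lists were chosen with earlier results of these data known. Genes named outside this rule, such as those called in both or only 1 background, were chosen after their values were seen. Replicate numbers did not pair the samples (correlation of same-numbered deviations -0.139 to 0.0948 over 12 pairs). Sequences came from RefSeq, and 16 of 19 hypoxia genes had a window.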

Additional observations from a re-analysis of the deposited data

Results flagged for a closer look

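The effect of Tmem120a shRNA differed between cells without and with Tmem120b shRNA for 441 genes, by the test of that difference in the 4-group fit. The values here are the log2 change with Tmem120b shRNA minus that without it. They are given for the genes named by the rule in the methods or called in both backgrounds only, so genes such as Egln3 (1.15) and Ccl5 (-1.14), also among the 441, are not repeated in the groups below. Every group had 2 or 3 arrays, too few for a test of single outlying arrays.

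Positive differences among the largest falls were Ffar4 (0.67), Col3a1 (1.32), Wdr89 (0.93), Igf2 (0.73), Depp1 (1.69), Ndufb2 (1.25) and Ndufb5 (1.08). Ghrh (2.37), ND4L (2.07), Atp5a1 (1.71) and Emc7 (1.62) were the other large ones. Energy metabolism genes were Ndufb9 (1.41), Dld (1.41), Sdhd (1.26), Idh2 (0.97), Mccc1 (1.18), Hadhb (0.82), Acadsb (0.79), Agpat3 (0.67), Pgk1 (0.50), Pdk1 (0.59) and Ak4 (0.67). Of the 10 hypoxia genes with a called difference, those named by the rule were Ak4, just given, Mxi1 (1.31), Higd1a (1.02), Ankrd37 (0.84) and P4ha2 (0.62). Stress genes were Hspa5 (1.62), Sdf2l1 (0.73), Ern1 (0.71), Trib3 (0.60), Gadd45a (0.57) and Hmox1 (0.83). The remaining positive ones were H2-K1 (1.49), Lamb1 (1.14), Sparcl1 (0.93), Pcna (0.93), Sfrp2 (0.67) and Smim19 (0.52). Depp1, Hspa5, Mxi1 and Higd1a were near background on the knock-down arrays, which limits what their differences can show.

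Negative differences of genes named by the rule were Saa3 (-1.40), Thrsp (-1.39), Fabp4 (-1.38), Igfbp5 (-1.34), Hpx (-1.29), Acta1 (-0.999), Txnip (-0.78), Acly (-0.65) and Hp (-0.64).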

How the results depend on the processing

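The counts depended on how the arrays were scaled. With the non-normalised values only shifted to a common median, the main effect took in 4 higher and 383 lower genes, the difference between backgrounds 2243, Tmem120a shRNA without Tmem120b shRNA 2794 (7 higher) and with it 1, where the main analysis gave 19, 152, 441, 595 and 35. Of the 171 main-effect calls, 152 were called the same way on that scale. The cause was not tested. With the mean of all probes of a gene there were 100 lower genes for the main effect, 271 for the difference, 385 without and 17 with Tmem120b shRNA. An additive fit, which puts the difference between backgrounds into the residual, called 68 lower genes, and 14 of 55 called named genes lost their call. With no fold requirement the main effect called 613 higher and 759 lower, and the comparisons without and with Tmem120b shRNA 1916 and 53. At a log2 change of at least 1 they were 1 higher, 8 lower, 106 and 5, and the difference 81.

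The replicate number as a block, which leaves control replicate 3 with a term of its own, gave 287 genes for the difference, 17 with Tmem120b shRNA (3 higher) and 11 called the same way in both backgrounds, 10 of them among the 18. Its main-effect counts and that without Tmem120b shRNA moved by less than 1.5 times. Whether the replicate numbers pair the samples was not settled. Leaving out each array in turn gave 16 to 45 higher and 140 to 170 lower genes for the main effect, 291 to 822 for the difference, 570 to 631 without and 14 to 280 with Tmem120b shRNA. The highest values for the higher genes (45), the difference (822) and the comparison with Tmem120b shRNA (280) came without double knock-down replicate 1. The difference was lowest (291) without control replicate 3. With Tmem120b shRNA, 23, 18 and 18 genes were called without control replicates 1, 2 and 3, 14 and 21 without Tmem120b knock-down replicates 1 and 2, and 23 without double knock-down replicate 2. The Tmem120a main effect stayed between -1.39 and -1.13 and the Tmem120b one between 0.12 and 0.38, with the same call in all settings. The 18 genes called in both backgrounds kept both calls in 7 to 15 cases when 1 array was left out, and 17 or 18 stayed called for the main effect. With the mean of all probes 11 kept both calls and 14 the main one, and with the median shift 1 and 15. Near the required change, Orm1 lost its call without Tmem120b knock-down replicate 2, Gpd1 without that array or Tmem120a knock-down replicate 1, Emc7 without Tmem120b knock-down replicate 1, Chac1 without double knock-down replicate 2, and Rgs17 without Tmem120a knock-down replicate 2 or double knock-down replicate 1. Over all named genes but Tmem120a and Tmem120b, those just given included, 2751 values kept direction and call, 53 lost and 44 gained a call, and 0 turned. Signals near background limit what a fold can show.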
